A study of Mus musculus with 6 samples.

Results

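The genes described here encode subunits of the respiratory chain and of ATP synthase, with a few assembly factors and paralogues that share their names. They were taken from a mouse array by name: every gene whose array name begins with Ndufa, Ndufb, Ndufc, Ndufs, Ndufv, Uqcr, Cox4 to Cox8 or Atp5, together with Cyc1 and Cycs. The rule gave 91 of the 34647 genes or unnamed features on the array, measured by 134 probes. Gene expression was compared between 3 c-Maf KO and 3 WT samples of macrophages that the labels call polarized M2-like BMM. They came from fetal liver chimeric mice, animals whose blood-forming cells descend from transplanted fetal liver cells of 1 genotype; whether cells of the host remained is not given in the labels. The c-Maf KO samples descend from fetal liver lacking c-Maf, the transcription factor encoded by Maf, and the WT samples from wild-type fetal liver. Both were grown in DMEM with 10 ng/ml M-CSF, which macrophage precursors need to survive and mature, and 10 ng/ml was added daily from day 4. M-CSF was the only cytokine named for either genotype. The labels give no strain, age, or c-Maf allele, name liver as the tissue, and leave it unsaid if each replicate is another mouse. The p-values below therefore cover the variation among the 6 samples, and part of it may be technical. WT replicates 1 and 3 carry the same file tag, and whether they share a source is not given.

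The respiratory chain sits in the inner mitochondrial membrane. Complex I, the NADH dehydrogenase, complex III and complex IV, the cytochrome c oxidase, pass electrons to oxygen and pump protons. ATP synthase lets the protons flow back through its membrane part, Fo, and makes ATP in its catalytic part, F1. Most subunits are encoded in the nucleus, and a small set of core subunits is encoded by mitochondrial DNA. Macrophages in alternatively activated states are known for their reliance on oxidative phosphorylation, and those activated by bacterial products for glycolysis.

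Each value is the log2 of the deposited ratio of a probe's signal to its median over the 6 samples. Before that, each array was scaled to the 75th percentile of its signals, which could not be checked for c-Maf KO replicate 1. Because the middle pair of values brackets the probe's median, these are mirror images around 0. A gene is represented by its probe of highest mean signal. It was kept where that probe was well above background on at least 2 of the 5 arrays with scanner files, which are all arrays except that of c-Maf KO replicate 1. Of the 91 genes, 87 were kept, and all 87 were well above background on all 5 arrays. Cox7b2, Cox8b, Cox8c and Ndufa4l2, which are tissue isoforms or paralogues of complex IV subunits, were not. Of all 34647 genes, 20199 were kept. Maf itself stood at -2.22, -2.36 and -1.92 in the c-Maf KO samples, against 1.92, 1.98 and 2.03 in the WT samples, a difference of -4.14 ± 0.12 (SE, limma adjusted p = 0.000556). The genotype labels and the Maf signal thus matched in all 6 samples.

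One c-Maf KO sample stood apart for these genes. The median of the 87 was 0.051, 0.078 and -0.053 in c-Maf KO replicates 1 to 3, against -0.017 in each of WT replicates 1, 2 and 3. c-Maf KO replicate 3 was thus the only c-Maf KO sample below the WT samples. It was the lowest of the 3 c-Maf KO samples for 78 of the 87 genes (89.7%), against 48.1% of all kept genes. That sample was also the lowest among strongly hybridising genes in general. When kept genes were divided into 10 equal groups by mean signal, the brightest group held 57 of the 87. The medians over all genes of that group were 0.055, 0.036 and -0.053 in c-Maf KO replicates 1 to 3 and -0.0073, 0.0063 and -0.018 in WT replicates 1 to 3. A further 14 of the 87 lay in the next group. Below, the median of each complex is given with all samples and without those that moved it by more than 1.5 times.

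**Figure D1:**
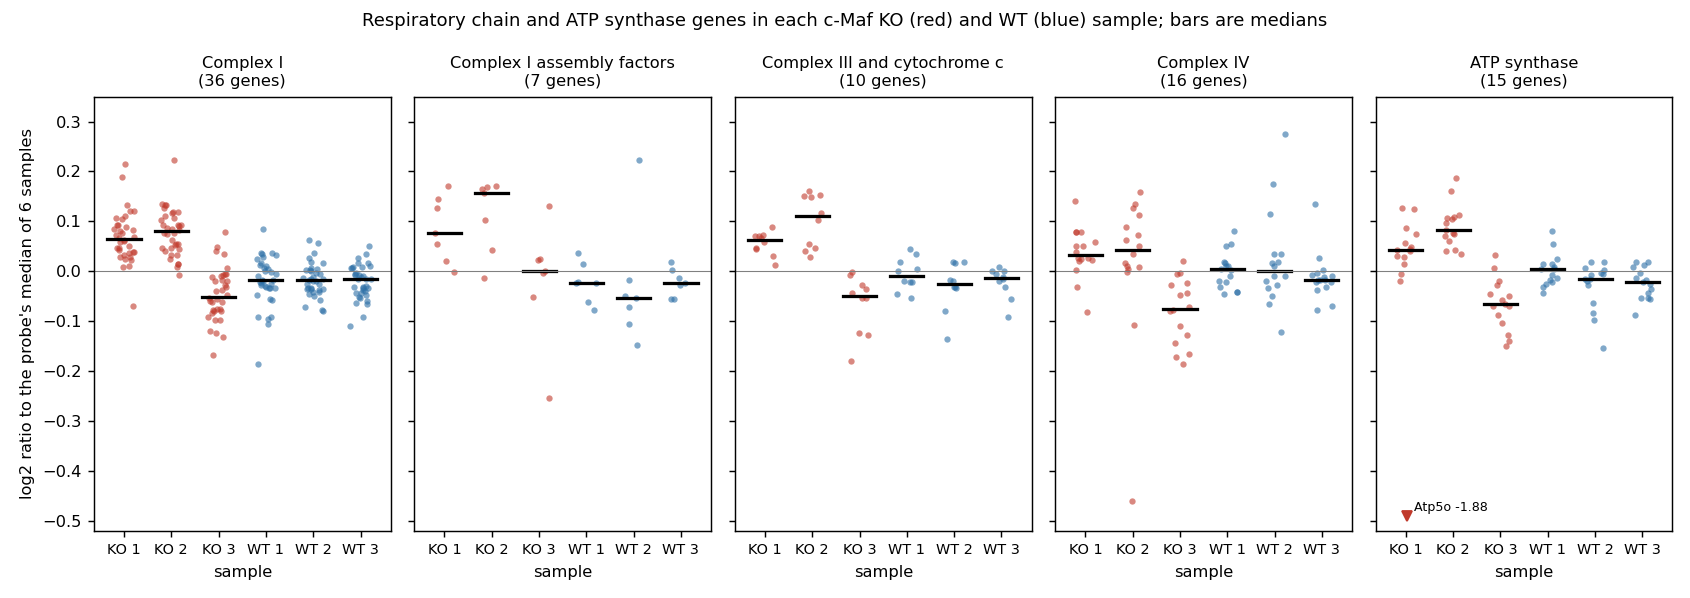
Log2 ratios (vertical axis) of the kept genes in c-Maf KO replicates 1 to 3 (red) and WT replicates 1 to 3 (blue), 1 panel per complex, with black bars for medians and the triangle for a point below the axis. In every panel the c-Maf KO samples split, with replicates 1 and 2 above replicate 3, while the WT medians lie between -0.053 and 0.0043.

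**Figure D2:**
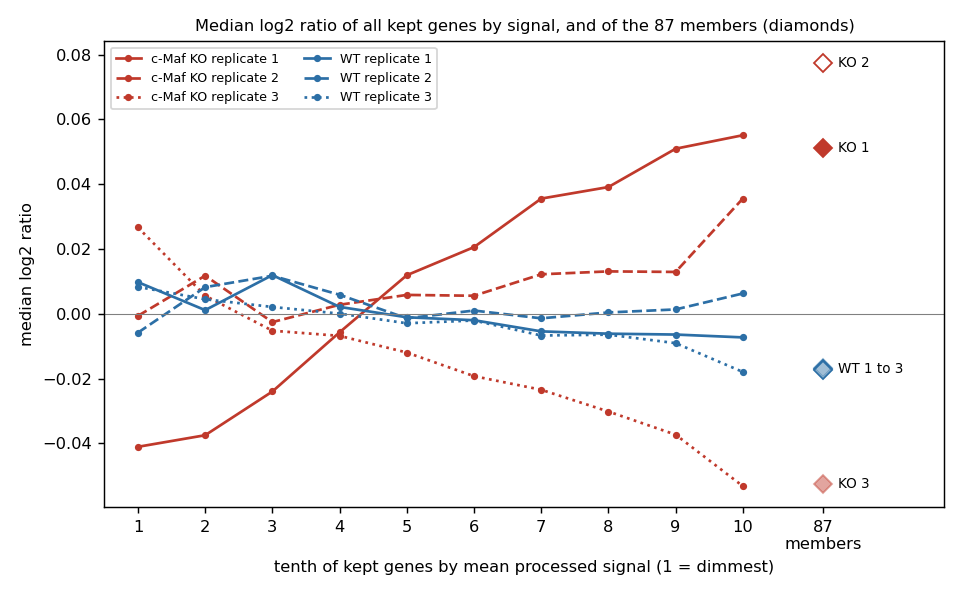
Median log2 ratio in each sample for all 20199 kept genes, in 10 equal groups of mean processed signal from dim to bright, with the medians of the 87 genes as diamonds on the right. In the dimmest group c-Maf KO replicate 1 lies below replicate 3, at -0.041 against 0.027. From group 4 on replicate 1 is the higher, and they diverge to 0.055 and -0.053 in the brightest group. The medians of the 87 genes in these samples are 0.051 and -0.053.

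None of the 87 genes passed the test between c-Maf KO and WT. Over all 20199 genes, 7 did (limma with Benjamini-Hochberg adjustment, adjusted p under 0.05; 0.0347%), 4 higher and 3 lower in c-Maf KO. The smallest adjusted p among the 87 was 0.227, for Cox6b2. At an unadjusted p under 0.05 there were 3 of 87 (3.45%), Cox6b2, Ndufb6 and Ndufaf3, against a background of 12.6% of all genes. Leaving out c-Maf KO replicate 3 gave a count of 8, leaving out c-Maf KO replicate 2 or WT replicate 3 gave 1, and array weights gave 9. The 6 samples did not overlap, with c-Maf KO higher, for 12 of the 87 genes (13.8%, against 11.1% of all genes), and with c-Maf KO lower for 1 (1.15%, against 8.86%). A share of 13.8% is close to the background and is not a result about these genes.

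The differences were small and closely spaced. From the 5th to the 95th percentile they ran from -0.060 to 0.14 log2 units for the 87 genes, against -0.34 to 0.41 for all kept genes. The median standard error was 0.065 for the 87 genes and 0.090 for all genes. The 95% interval of the difference lay within 0.25 log2 units of 0 (a 1.19-fold difference either way) for 65 of the 87 genes and within 0.5 (1.41-fold) for 85. The exceptions at the wider bound were Atp5o, in the ATP synthase, and Cox6a2, in complex IV. Of the 87 differences, 67 were above 0 and 20 below, with a median of 0.046, against 10241 above 0 of 20199 and a median of 0.0018 for all genes. This balance depended on which c-Maf KO samples entered. The median was 0.088 with 78 genes above 0 when c-Maf KO replicate 3 was left out, 0.023 with 58 above 0 without c-Maf KO replicate 1, and 0.019 with 55 above 0 without c-Maf KO replicate 2. When every array was centred within those 10 signal groups, an alternative chosen after the values were seen, the median was 0.027 with 57 above 0.

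**Figure D3:**
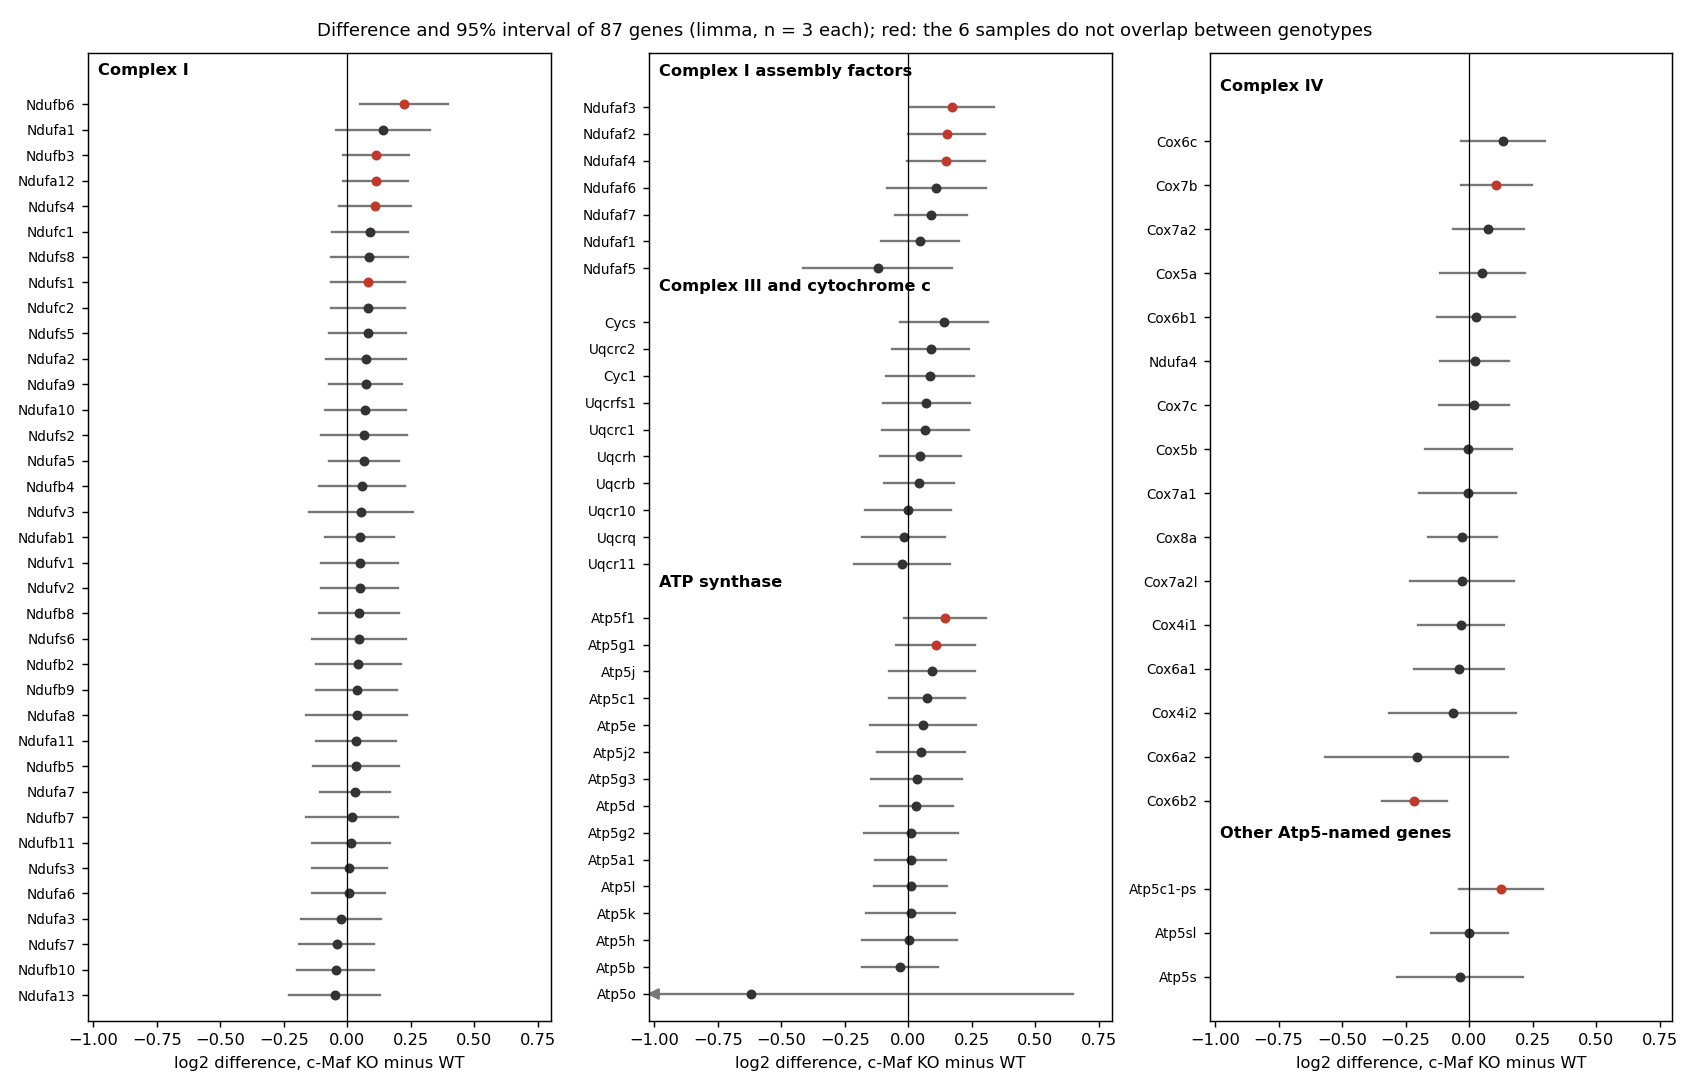
Log2 difference (c-Maf KO minus WT, points) with its 95% interval from limma (bars, n = 3 each) for the 87 kept genes, grouped by complex and ordered by difference. Red points mark genes whose 6 samples do not overlap between genotypes, and the arrow marks the interval of Atp5o, which runs on to -1.89.

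Complex I has the most members, 36 of the 87. Its 7 core subunits on the list carry the flavin and the iron-sulfur clusters and transfer electrons from NADH to ubiquinone, and its 29 accessory subunits surround the core. None passed the test. Of the 36 differences, 32 were above 0, with a median of 0.049 (0.049 for the core and 0.049 for the accessory subunits) and it was 0.032 without c-Maf KO replicate 1, 0.024 without c-Maf KO replicate 2 and 0.095 without c-Maf KO replicate 3. In the samples the complex I median was 0.066, 0.080 and -0.051 in c-Maf KO replicates 1 to 3, against -0.018, -0.018 and -0.016 in WT replicates 1 to 3. The core subunits ranged from -0.042 for Ndufs7, which binds the last iron-sulfur cluster before ubiquinone, to 0.087 for Ndufs8, another iron-sulfur subunit. For 5 complex I genes the samples did not overlap, with c-Maf KO higher: Ndufb6, Ndufb3, Ndufa12, Ndufs4 and Ndufs1. This is 5 of 36, close to the 11.1% of all genes, and their values are given as a description.

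Ndufb6, an accessory subunit of the membrane arm, had the highest difference of the 87 genes. Its log2 ratios were 0.21, 0.22 and 0.04 in c-Maf KO replicates 1 to 3, against -0.06, -0.04 and -0.09 in WT replicates 1 to 3. The difference was 0.22 ± 0.07 (SE), a 1.17-fold higher signal in c-Maf KO, with an adjusted p of 0.292 in limma. c-Maf KO replicate 3 lay closest to the WT samples, and without it the difference was 0.28 (limma adjusted p = 0.205). The gene has a second probe, in which the difference was 0.13 and the genotypes overlapped: its values were 0.13, 0.21 and -0.04 in c-Maf KO, against -0.06, 0.04 and -0.06 in WT. The probes are shown by the first 30 of their 60 bases, because the finding rests on where they bind.

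Ndufb6, probe of higher signal: gttcactattatgtcaaatatcatatggct

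Ndufb6, second probe: cagcacaagtatgttcctaaagtgctgtat

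Per the file annotation (mm9, minus strand) the first spans chr4:40219858-40224715, which at 4858 bases is longer than the probe, and the second lies at chr4:40217720-40217779.

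Other complex I genes differed less. Ndufb3, an accessory subunit of the membrane arm, had 0.04, 0.03 and 0.05 in c-Maf KO replicates 1 to 3, against -0.11, -0.08 and -0.03 in WT replicates 1 to 3. Its difference was 0.11 ± 0.05 (SE, limma adjusted p = 0.445), and c-Maf KO replicate 3 was the highest c-Maf KO sample. Ndufa12, an accessory subunit of the peripheral arm, had 0.05, 0.08 and 0.03 in c-Maf KO, against -0.03, -0.07 and -0.06 in WT, a difference of 0.11. Ndufs4, which stabilises the NADH-binding module, had 0.13, 0.01 and 0.08 in c-Maf KO, against -0.05, -0.01 and -0.04 in WT, a difference of 0.11. In these 3 genes every c-Maf KO sample was above every WT sample, and none passed the test. The 4 complex I differences below 0 were those of Ndufa13, Ndufb10, Ndufs7 and Ndufa3, from -0.050 to -0.025, and in each the genotypes overlapped. Ndufa13, also known as a partner of STAT3, had 0.02, 0.01 and -0.17 in c-Maf KO replicates 1 to 3, against -0.03, 0.06 and -0.01 in WT replicates 1 to 3. Its direction turned without c-Maf KO replicate 3, to a difference of 0.012.

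The 7 complex I assembly factors named Ndufaf1 to Ndufaf7, which help build the complex and are not part of it, had the highest median difference of the 5 groups, 0.11, with 6 of 7 above 0. Leaving out 1 sample at a time, the lowest median was 0.062 (c-Maf KO replicate 2 left out) and the highest 0.16 (WT replicate 1 left out). None passed the test. The samples did not overlap for 3 of the 7 (11.1% of all genes), Ndufaf3, Ndufaf2 and Ndufaf4. Ndufaf3 had 0.17, 0.17 and 0.02 in c-Maf KO replicates 1 to 3, against -0.02, -0.10 and -0.02 in WT replicates 1 to 3, a difference of 0.17 ± 0.07 (SE, limma adjusted p = 0.378). Ndufaf2, a homologue of Ndufa12 that acts late in assembly, had 0.15, 0.16 and 0.02 in c-Maf KO, against -0.02, -0.07 and -0.03 in WT, a difference of 0.15. Ndufaf4, which works with Ndufaf3, had 0.02, 0.17 and 0.13 in c-Maf KO, against -0.02, -0.05 and -0.06 in WT, a difference of 0.15. Its second probe also separated the genotypes, with 0.13, 0.11 and 0.10 in c-Maf KO and -0.10, -0.13 and -0.14 in WT, a difference of 0.23. Ndufaf5, which modifies the core subunit Ndufs7, was the member below 0, at -0.12 ± 0.12 (SE), with 0.13, -0.01 and -0.25 in c-Maf KO and 0.01, 0.22 and -0.01 in WT. A further 6 assembly factors of complex I with other names had a median of 0.093, all above 0 and none passing the test. Of these, Nubpl, an iron-sulfur carrier, and Ecsit did not overlap, at 0.19 and 0.14 (2 of 6, against 11.1% of all genes). Separate assembly factors of complexes III and IV had a median of 0.11, with 13 of 14 above 0. Among them 6 of 14 did not overlap and were higher in c-Maf KO (11.1% of all genes did so), from Sco1, a copper chaperone of complex IV, at 0.23 to Ttc19, a complex III factor, at 0.12.

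Complex III passes electrons from ubiquinol to cytochrome c, the mobile carrier encoded by Cycs. Of these 10 genes none passed the test, 7 had a difference above 0 and the median was 0.057. Leaving out c-Maf KO replicate 2 gave 0.021, and leaving out c-Maf KO replicate 3 gave 0.10. No member of this group separated the genotypes with the probe of highest signal. Cycs had 0.072, 0.16 and -0.0014 in c-Maf KO replicates 1 to 3, against -0.054, -0.14 and 0.0014 in WT replicates 1 to 3, so that only c-Maf KO replicate 3 and WT replicate 3 overlapped. The difference was 0.14 ± 0.07 (SE, limma adjusted p = 0.471). A second Cycs probe did separate the genotypes, with 0.18, 0.19 and 0.03 in c-Maf KO and -0.03, -0.13 and -0.07 in WT, a difference of 0.21. The dimmest of its 3 probes, well above background on 2 of 5 arrays, gave -0.07 with values from -0.27 to 0.66. Cyc1, the cytochrome c1 of complex III, had a difference of 0.086, with 0.07, 0.10 and -0.04 in c-Maf KO and 0.04, -0.08 and -0.09 in WT. Uqcrc2, a core protein, had 0.088, and Uqcrfs1, the Rieske iron-sulfur protein, had 0.072. The lowest were Uqcr11, Uqcrq and Uqcr10, small subunits, at -0.025, -0.018 and -0.0018, all with overlapping genotypes. A second probe of Uqcrq gave 0.086.

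Complex IV reduces oxygen. Its 16 kept genes were the only group with a median below 0, at -0.0050, with 7 above 0 and 9 below. None of the 16 passed the test. All 7 above 0 were ubiquitous subunits, and 5 of the 9 below 0 were tissue isoforms or paralogues. Across the samples the median was 0.033, 0.042 and -0.075 in c-Maf KO replicates 1 to 3, against 0.0043, 0.000032 and -0.017 in WT replicates 1 to 3. The median difference was -0.027 without c-Maf KO replicate 1, -0.037 without c-Maf KO replicate 2 and 0.049 without c-Maf KO replicate 3. It was 0.018 without WT replicate 1 and 0.00065 without WT replicate 2. With array weights it was 0.026, and with the mean over a gene's probes 0.00049, so that its sign is not settled. The 11 ubiquitous subunits on the list ranged from -0.039 for Cox6a1 to 0.13 for Cox6c. Cox7b had 0.08, 0.13 and 0.02 in c-Maf KO, against -0.05, -0.02 and -0.02 in WT, a difference of 0.11. It was the only ubiquitous subunit whose genotypes did not overlap, 1 of 11, against 11.1% of all genes.

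Several complex IV subunits exist as a ubiquitous form and a form that is best known from one tissue. All 5 kept tissue forms and paralogues had a difference below 0, with a median of -0.064. Cox4i2, Cox7a1 and Cox7a2l each turned above 0 when 1 replicate was left out (up to 0.030, 0.055 and 0.048). Most of these forms were dim. Mean processed signals were 182 for Cox6a2, 202 for Cox6b2, 335 for Cox4i2, 1330 for Cox7a1 and 54410 for Cox7a2l. The dimmest ubiquitous subunit, Cox6b1, had 6059. Cox6b2, known as the testis form, had -0.08, -0.11 and -0.13 in c-Maf KO replicates 1 to 3, against 0.08, 0.12 and 0.13 in WT replicates 1 to 3. All c-Maf KO samples were thus below all WT samples, with little spread in either genotype. The difference was -0.22 ± 0.05 (SE), which is 0.861 times the WT signal, with a limma adjusted p of 0.227. Cox6b2 was the only one of the 87 genes with non-overlapping genotypes and c-Maf KO lower. Its difference stayed between -0.23 and -0.20 whichever replicate was left out. Its ubiquitous counterpart Cox6b1 had 0.06, 0.05 and -0.08 in c-Maf KO, against 0.02, -0.05 and -0.02 in WT, a difference of 0.027. The single Cox6b2 probe is given by its first 30 of 60 bases, since the value rests on it alone.

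Cox6b2: ggaactttcccgggcaaaatatgaccttgc

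It lies on the minus strand at chr7:4703488-4703547 (mm9, per the file annotation).

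The other pairs did not separate the genotypes. Cox4i2, known as the lung and hypoxia-inducible form, had a difference of -0.064, with -0.03, 0.13 and -0.03 in c-Maf KO and -0.04, 0.28 and 0.03 in WT, while the ubiquitous Cox4i1 had -0.033. Replicate 2 was the highest sample of each genotype for Cox4i2. Cox6a2, the heart and muscle form, had 0.02, -0.46 and -0.02 in c-Maf KO, against 0.05, 0.18 and -0.07 in WT. Its difference of -0.21 ± 0.15 (SE) was set by c-Maf KO replicate 2, and was -0.053 without that sample. Its counterpart Cox6a1 had -0.039, which turned to 0.026 without c-Maf KO replicate 3. Cox7a1, the muscle form, had -0.0059 and its counterpart Cox7a2 had 0.076. Cox7a2l, which takes part in joining complexes III and IV into supercomplexes, had -0.028, with 0.08, 0.01 and -0.19 in c-Maf KO and -0.04, 0.03 and -0.01 in WT. Cox8a had -0.027, and its muscle form Cox8b was not kept. Ndufa4, once assigned to complex I and now to complex IV, had 0.021, and its paralogue Ndufa4l2 was not kept.

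ATP synthase has 15 members, 5 of F1 and 10 of the stalks and Fo. None passed the test, 13 differences were above 0, and the median was 0.032. It was 0.014 without c-Maf KO replicate 1, -0.0092 without c-Maf KO replicate 2 and 0.073 without c-Maf KO replicate 3, so that its sign is not settled. The F1 subunits lay close together: Atp5b, the catalytic beta subunit, had -0.032, Atp5a1, the alpha subunit, 0.010, Atp5d 0.032, Atp5e 0.058 and Atp5c1, the rotating gamma subunit, 0.073. In the stalk and Fo, 2 of 10 genes had non-overlapping genotypes with c-Maf KO higher, against 11.1% of all genes. Their values are given as a description. Atp5f1, the b subunit of the outer stalk (named Atp5pb in RefSeq), had 0.04, 0.19 and 0.03 in c-Maf KO replicates 1 to 3, against -0.03, -0.10 and -0.04 in WT replicates 1 to 3, a difference of 0.14 ± 0.07 (SE, limma adjusted p = 0.440). Atp5g1 is one of 3 genes, with Atp5g2 and Atp5g3, whose products make the same mature c subunit of the Fo ring. Their differences were 0.11 for Atp5g1, 0.011 for Atp5g2 and 0.033 for Atp5g3.

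The Atp5g1 value turned on the probe. The probe of highest signal had 0.04, 0.07 and 0.01 in c-Maf KO replicates 1 to 3, against -0.01, -0.15 and -0.04 in WT replicates 1 to 3. The second probe had -0.08, -0.17 and -0.01 in c-Maf KO, against 0.01, 0.10 and 0.08 in WT, a difference of -0.15. Both probes separated the genotypes, in opposite directions, and both were well above background on all 5 arrays. They are shown by the first 30 of their 60 bases, since which one is read decides the sign.

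Atp5g1, probe of higher signal: tgccagtcctggtgctggagtctactgagc

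Atp5g1, second probe: tttcaattattaaaagctttaagggctggc

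The first lies at chr11:95934315-95934374 and the second at chr11:95930317-95930376, both on the minus strand (mm9, per the file annotation). The mean over the kept probes of Atp5g1 gave -0.019.

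A single value set the result for Atp5o, which encodes the OSCP subunit that joins F1 to the outer stalk. Its log2 ratios were -1.88, 0.08 and -0.05 in c-Maf KO replicates 1 to 3, against 0.01, -0.01 and 0.02 in WT replicates 1 to 3. The difference was -0.62 ± 0.52 (SE, limma adjusted p = 0.642), and 0.013 ± 0.07 without c-Maf KO replicate 1. The other 5 samples lay between -0.05 and 0.08, and 1 stood apart. Of the 20199 kept genes, Atp5o was the only one in any of the 6 samples with 1 value more than 1.5 log2 units from the others while those 5 lay within 0.2 of each other. Atp5o has 1 probe on the array, and no scanner file was used for c-Maf KO replicate 1, so no second reading of the spot can be given. The probe, whose first 30 of 60 bases are shown because the outlying value is this probe's alone, lies at chr16:91925542-91925601 on the minus strand (mm9, per the file annotation).

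Atp5o: aattggggagaagtaccttgttatgtctgc

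Genes with an Atp5 name that are not subunits on the list were Atp5c1-ps, a pseudogene of Atp5c1, Atp5s and Atp5sl. RefSeq now names Atp5s and Atp5sl Dmac2l and Dmac2. Their differences were 0.13, -0.035 and 0.0010. Atp5c1-ps did not overlap, with 0.15, 0.15 and 0.00078 in c-Maf KO and -0.075, -0.00078 and -0.0012 in WT. That is 1 of 3, against 11.1% of all genes. A pseudogene probe can also bind the transcript of its parent gene, and Atp5c1 itself had 0.073 with overlapping genotypes.

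How far probes of 1 gene differ shows how much a single-gene value depends on the probe. The probes were read on the same 6 samples, so this distance does not measure the spread among samples. Of the 87 genes, 28 had several kept probes, and in 11 the probes gave differences of opposite sign. The median distance between the highest and the lowest probe of a gene was 0.054 log2 units over these 28 genes. The median difference over all 87 genes was 0.046. That median is signed and the distance is not, so their sizes are not directly comparable. The widest was 0.29, for Cycs, through its dimmest probe, and Ndufa3 spanned -0.03 to 0.25.

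**Figure D4:**
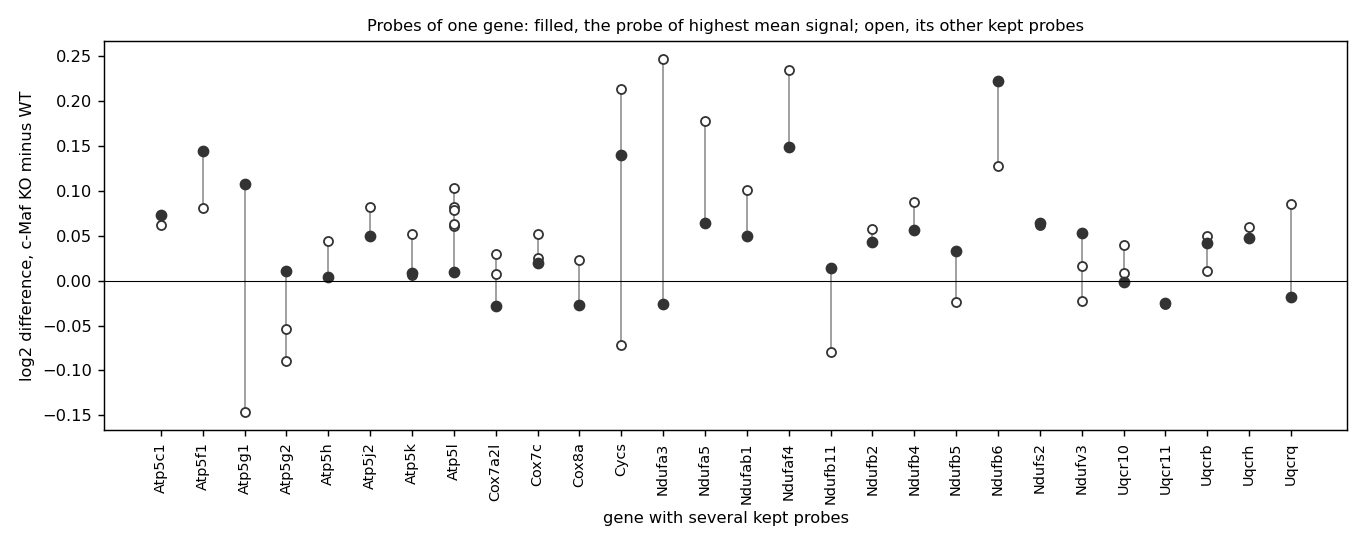
Log2 difference (c-Maf KO minus WT) of every kept probe for the 28 genes with several, the probe of highest mean signal filled and the others open. Probes of Atp5g1 lie at 0.11 and -0.15 on opposite sides of 0, while those of Ndufb6 and Ndufaf4 all lie above it.

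The core subunits encoded by mitochondrial DNA are on the same array under other names. This list of 13 was added after the values were seen. All 13 were kept and none passed the test, with 11 differences above 0 and a median of 0.096. Without WT replicate 3 the median was 0.031 with 10 above 0, and without WT replicate 1 it was 0.15. c-Maf KO replicate 3 was the lowest c-Maf KO sample for 11 of the 13 (84.6%), much as for the 87 nuclear genes (89.7%), but the WT samples were divided differently. The median was 0.046, 0.073 and -0.030 in c-Maf KO replicates 1 to 3, against 0.056, -0.045 and -0.19 in WT replicates 1 to 3. WT replicate 3 was the lowest WT sample for 12 of the 13 (92.3%), against 33.3% of the 87 nuclear genes and 35.9% of all genes. COX1, the catalytic subunit of complex IV, had 0.24, 0.19 and -0.06 in c-Maf KO, against 0.06, -0.06 and -0.30 in WT, a difference of 0.23 with overlapping genotypes. ND1, a membrane subunit of complex I, had 0.10, 0.15 and -0.03 in c-Maf KO, against 0.03, -0.04 and -0.38 in WT, a difference of 0.20. Only ATP8, an Fo subunit, did not overlap, with 0.10, 0.08 and 0.02 in c-Maf KO and -0.04, -0.02 and -0.11 in WT. That is 1 of 13, against 11.1% of all genes. Mitochondrial transcripts are processed from long precursors, so these 13 values are not independent. The files place the ND3 probe on chromosome 1, a nuclear position.

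**Figure D5:**
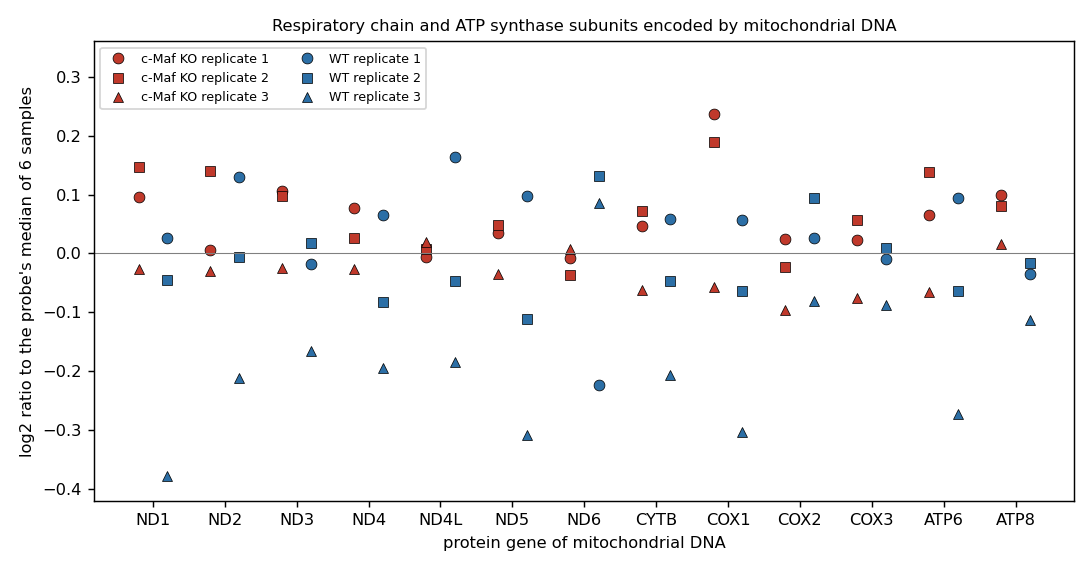
Log2 ratios of the 13 protein genes of mitochondrial DNA in c-Maf KO (red, left of each tick) and WT (blue, right) replicates, with a marker shape per replicate number. WT replicate 3 (blue triangles) is the lowest WT sample for 12 of the 13. The highest c-Maf KO value is 0.24, for COX1.

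Regulators of the nuclear genes were also on the array. NRF1 and GABP bind many promoters of respiratory genes, ERR alpha (Esrra) and YY1 act there with PGC-1 coactivators, and TFAM transcribes and packages mitochondrial DNA. Of 15 listed regulators 12 were kept and none passed the test, with 8 below 0 and a median of -0.039. Ppargc1a, which encodes PGC-1 alpha, and Esrrg were not kept. Tfam had 0.15, 0.17 and 0.01 in c-Maf KO replicates 1 to 3, against -0.11, -0.05 and -0.01 in WT replicates 1 to 3, a difference of 0.17 (limma adjusted p = 0.402). It was the only regulator with non-overlapping genotypes and c-Maf KO higher, 1 of 12, against 11.1% of all genes. Pprc1, a PGC-1-related coactivator, was the only one with c-Maf KO lower, 1 of 12, against 8.86% of all genes. Its difference was -0.09 (-0.01, -0.13 and -0.04 in c-Maf KO, against 0.05, 0.01 and 0.01 in WT). Both are given as a description. Nrf1 had -0.029, Gabpa -0.077, Esrra -0.023 and Yy1 0.010, all with overlapping genotypes.

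The promoters were read for the core letters of these factors, as a description of the genes. RefSeq (GRCm38.p6) gave the 250 bases before the start for 74 of the 91 genes. Both strands were searched. The NRF1 letters GCGCATGC were found in 9 of 74 (12.2%), against 2.56% of 27025 genes. The GABP letters CCGGAAG, shared by other ETS factors, were found in 12 (16.2%, against 7.83%), the ERR letters AAGGTCA in 5 (6.76%, against 4.70%) and the YY1 letters AAGATGGC in 2 (2.70%, against 1.83%). A match describes letters and not binding. The NRF1 letters overlap their own reverse complement, so that a pair of matches shifted by a few bases is 1 palindromic stretch. The promoters of 3 of the 9 genes with NRF1 letters are shown as examples, Atp5l and Cox6a1 with GABP letters as well. They are written 5′ to 3′ on the strand of the gene, with matched letters in capitals.

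Cycs: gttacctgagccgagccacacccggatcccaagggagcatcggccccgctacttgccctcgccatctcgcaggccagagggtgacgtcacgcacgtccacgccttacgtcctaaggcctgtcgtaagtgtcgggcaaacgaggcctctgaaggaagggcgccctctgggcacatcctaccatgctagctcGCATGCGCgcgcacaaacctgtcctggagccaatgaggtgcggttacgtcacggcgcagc

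Cox6a1: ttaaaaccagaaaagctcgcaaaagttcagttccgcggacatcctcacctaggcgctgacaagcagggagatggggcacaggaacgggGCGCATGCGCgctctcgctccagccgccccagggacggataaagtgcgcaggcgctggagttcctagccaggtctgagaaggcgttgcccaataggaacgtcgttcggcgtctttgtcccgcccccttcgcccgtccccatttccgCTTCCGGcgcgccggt

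Atp5l: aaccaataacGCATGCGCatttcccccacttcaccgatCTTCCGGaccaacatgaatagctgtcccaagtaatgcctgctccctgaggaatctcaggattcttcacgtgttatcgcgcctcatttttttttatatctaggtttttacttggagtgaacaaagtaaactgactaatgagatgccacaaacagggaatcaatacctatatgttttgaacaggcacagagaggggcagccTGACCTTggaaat

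The Cycs stretch is chr6:50566570-50566819, that of Cox6a1 chr5:115348959-115349208 and that of Atp5l chr9:44920743-44920992, all on the minus strand. In Cycs the capitals are the NRF1 letters, on the other strand. In Cox6a1 the first run in capitals is the NRF1 palindrome and the run nearest the start holds the GABP letters on the other strand. In Atp5l the order is NRF1, GABP, then ERR, all on the other strand. Their genes had differences of 0.14 ± 0.07 (SE) for Cycs, -0.039 ± 0.072 for Cox6a1 and 0.0095 ± 0.058 for Atp5l. The part of these letters in the values was not tested.

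Genes that work beside these complexes were listed as well. The 4 genes of complex II, the succinate dehydrogenase, which was not in the naming rule, had a median of 0.070, all above 0. Their sample medians were 0.082, 0.094 and -0.042 in c-Maf KO replicates 1 to 3, against -0.00011, -0.012 and -0.011 in WT replicates 1 to 3. Carriers and channels of the mitochondrial membranes had a median of 0.079, with 7 of 8 above 0. Factors that assemble or regulate ATP synthase had 0.089, with 3 of 4 above 0. Tmem70, which helps assemble the c ring, did not overlap at 0.13 (1 of 4 higher in c-Maf KO, against 11.1% of all genes). Of 9 kept genes of the hypoxia response, 8 were above 0. Slc2a1, the glucose transporter GLUT1, had 0.22, 0.24 and 0.07 in c-Maf KO, against -0.16, -0.07 and -0.13 in WT, a difference of 0.30 (limma adjusted p = 0.227). Slc2a1 did not overlap, nor did Higd1a, a small partner of complex IV, at 0.15 (2 of 9 higher in c-Maf KO, against 11.1% of all genes). No gene of these lists passed the test.

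Markers of cell types were measured beside these genes. Of the macrophage markers, all 9 names on the array, Csf1r, Cd68 and Ptprc among them, were well above background on all 5 arrays. Their mean was -0.030, -0.16 and -0.10 in c-Maf KO replicates 1 to 3, against 0.014, 0.082 and 0.036 in WT replicates 1 to 3, and 8 of 9 had a difference below 0. Of 16 fibroblast and stromal markers, such as Col1a1, Col3a1 and Pdgfra, 15 were kept, and Lum was not. All 15 had a difference above 0, the median was 0.91, and their mean was 0.23, 0.15 and 0.54 in c-Maf KO, against -0.096, -0.98 and -0.66 in WT. None of the 15 passed the test (smallest limma adjusted p = 0.139, for Cxcl12). Striated muscle markers were kept for 2 of 7 names, and Ckm, Des and Tnnt3 were not well above background. Erythroid markers were kept for 2 of 6 and hepatocyte markers for 2 of 5, without Alb or Apoa1. The 6 neutrophil markers, all kept, had means of -0.49, 0.28 and -0.44 in c-Maf KO, against -0.014, -0.0057 and 0.59 in WT. No marker of any of these cell types passed the test. The part of these markers in the values of the respiratory genes was not tested. Whether the samples hold several cell types was not tested either. In samples that do, fewer cells of a type and less RNA per cell cannot be told apart.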

How the data were processed

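RNA of 3 c-Maf KO and 3 WT samples was hybridised to 1-colour Agilent arrays. Per the submitters' processing notes, the authors read the scanner intensities with Agilent Feature Extraction 10.7.3.1. The authors' value table covers all 6 samples and holds ratios. On each of the 5 arrays with scanner files the log2 of these deposited values, after centring, was compared with the scanner intensity. It matched the log2 of that intensity over its 75th percentile (Pearson r = 1 across probes, offsets of at most 0.013). Each value was thus taken as signal over the median of its probe in the 6 samples. The software that made it and any flooring of low values are not given in the sources used here. For c-Maf KO replicate 1 no scanner file was used here, and only the value table gives its values. The match to scanner intensity was therefore not checked for that array.

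Scanner files gave detection and mean signal for the 5 other arrays. Control spots were left out, and 134 to 167 flagged spots of 59305 per array, and spots of one probe were averaged. The 75th percentile of intensity was 411 to 495, 48.9% to 50.5% of probes were well above background and no spot was saturated. Of 55821 probes in the value table, 140 were not in the scanner list of 55681, and 13 had no unflagged spot on some array and were dropped. Precision is limited by the number of arrays. The 5 arrays with scanner files shared slide 1, with c-Maf KO replicates 2 and 3 in row 2 and WT in row 1. Among these 5, genotype and row cannot be told apart. The position of the array of c-Maf KO replicate 1 is not known here. The files of WT replicates 1 and 3 carry the same tag, WT3. Whether these arrays share a source is not given, and they were fitted as separate samples. If they do, the WT group holds fewer than 3 independent samples, and its spread is partly technical.

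Log2 ratios of all 20199 kept genes were fitted with limma 3.58.1 in R 4.3.3 (lmFit and eBayes, genotype only), with Benjamini-Hochberg adjustment over all of them and an adjusted p under 0.05. Positive differences are higher in c-Maf KO. Coordinates of probes are those of the files (mm9). RefSeq (GRCm38.p6) named 85 of the 91 genes by accession and gave promoters for 74.

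The genes, lists and tests were chosen with earlier results of these data known. By rule the text names called genes, genes not kept, up to 4 per complex and direction whose samples do not overlap, those of highest and lowest signal per complex, isoform pairs, up to 3 genes of each other list by size, and Maf. Any gene named beyond these was picked with its values in view. Ndufb1, Ndufaf8, Uqcc and Twnk are on the lists, but these names are not on the array. Deviations of same-numbered samples correlated at -0.029, -0.061 and 0.039 across genes, so the numbers do not pair the samples. Alternatives were the scanner values of 5 arrays (75th percentile, normexp with offset 50, quantile), median centring and quantile scaling of the value table, other filters, the mean of a gene's probes, eBayes with trend and robust options (statmod 1.5.0), array weights, a replicate block, each replicate left out and, chosen after seeing the data, centring within 10 equal groups of mean signal.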

Additional observations from a re-analysis of the deposited data

How the results depend on the processing

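No respiratory gene passed the test under any of the 18 alternatives, with a smallest limma adjusted p between 0.150 and 0.515; 3 had an unadjusted p under 0.05, and 1 to 9 under the alternatives. Over all genes 7 were called, against 22 with normexp, 2 without a filter on dim probes, 22 with detection on all 5 arrays, 83 with the trend and robust options, 3 with the replicate block and 2537 at an unadjusted p under 0.05. Leaving out 1 replicate at a time gave 2 to 100. The replicate block changed no call among the respiratory genes (smallest adjusted p 0.343), and the numbers were not found to pair the samples. Of the 648 recomputed differences of the 36 genes followed, 612 kept their direction and 36, in 14 genes, turned it. The cause was not tested. Atp5o was not among the genes followed. Its difference of -0.62 was 0.011 (75th percentile), 0.026 (normexp) and 0.0081 (quantile) on the scanner files, which lack c-Maf KO replicate 1. Without that replicate in the value table it was 0.013. Without 1 replicate, Atp5g2 ranged from -0.025 to 0.073, Atp5g3 from -0.011 to 0.077, Atp5s from -0.11 to 0.029, Atp5sl from -0.019 to 0.040, Cox4i1 from -0.069 to 0.022, Cox4i2 from -0.13 to 0.030, Cox6a1 from -0.074 to 0.026, Cox7a1 from -0.048 to 0.055, Cox7a2l from -0.084 to 0.048, Cox8a from -0.041 to 0.00019, Ndufa13 from -0.084 to 0.012 and Uqcrq from -0.052 to 0.034. On the scanner files of 5 arrays, Atp5b was 0.0012 (normexp), Atp5g2 -0.026 (75th percentile) and -0.015 (quantile), and Atp5sl -0.021 (75th percentile), -0.0049 (normexp) and -0.018 (quantile). With the mean over probes, Atp5g1 was -0.019, Atp5g2 -0.044, Cox7a2l 0.0027 and Uqcrq 0.034. Array weights gave 0.023 for Cox7a1 and 0.0085 for Uqcrq. Median centring gave -0.0046 for Atp5sl, and centring within 10 signal groups gave -0.0075 for Atp5g2 and -0.010 for Atp5sl. The median difference of complex IV, -0.0050, was -0.037 to 0.049 without 1 replicate, and that of ATP synthase, 0.032, was -0.0092 to 0.073. Differences near the median of 0.046 are smaller than the median standard error of 0.065, and 3 arrays per genotype do not resolve them.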
